A study of Homo sapiens with 8 samples.

Results

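The splicing factors and hnRNPs described here are the genes whose names begin with SRSF, HNRNP, SNRP, SF3A or SF3B, without a hyphen and without pseudogenes. They number 53 of the 12939 genes listed in each library: 11 SRSF, 22 HNRNP, 11 SNRP and 9 SF3A/SF3B genes. A further 21 pseudogenes and 1 readthrough gene with a hyphen (HNRNPUL2-BSCL2) share these name starts and were left out. HNRNPA1P48 was kept, since the reference tables hold it as the protein-coding retrogene HNRNPA1L3 in spite of its listed name.

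The cells were CSCs, the cancer stem cell fraction of MDA-MB-231, an established line of triple-negative breast cancer. All groups carried stable pOct4a-GFP, a reporter driven by the Oct4a regulatory region, and the vector pRFP-C-RS with an shRNA under puromycin selection. The 3 groups were scramble shRNA (the control, 3 libraries), CDH2 shRNA (3 libraries) and Cx43 shRNA (2 libraries), and the line used for CDH2 shRNA was 1 clone (clone B). Cells high in GFP and RFP were sorted and kept overnight before total RNA was taken, so the CSCs are a fraction set by reporter brightness. Nothing in the labels says that replicates were separate cultures, so p-values measure only the spread between these libraries, which may be technical. The values are log2(CPM + 1), where CPM is the read count of a gene scaled to its library, and they hold no counts, so their sequencing depth is unknown. In these bulk samples, fewer cells of a type and less RNA per cell cannot be told apart.

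The cells were checked against markers. All 8 markers of mesenchymal breast cancer lines were listed, among them VIM and CD44, and of 10 luminal markers only EPCAM, KRT8, KRT18 and XBP1 were. CDH2 and GJA1, the Cx43 gene, were not analysed here. Loss of either target in its own group was therefore not checked. The 13 mitochondrially encoded mRNAs held 0.594 to 1.01% of CPM in the scramble libraries, 1.16 to 2.03% with CDH2 shRNA and 1.25 to 2.36% with Cx43 shRNA. MALAT1, a nuclear lncRNA found in the speckles that store splicing factors, fell by 0.39 ± 0.08 (SE) with CDH2 shRNA and by 0.76 ± 0.09 with Cx43 shRNA on the log2 scale, with limma adjusted p = 0.034 and 0.035. The other 2 nuclear lncRNAs of the same list, NEAT1 and KCNQ1OT1, did not pass, at 0.13 ± 0.20 and 0.04 ± 0.21 with CDH2 shRNA and −0.00 ± 0.24 and −0.65 ± 0.24 with Cx43 shRNA. The part of these differences in the results below was not tested.

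Introns are removed by the spliceosome, which is built anew on each pre-mRNA from small nuclear ribonucleoproteins (snRNPs). SNRP genes encode the Sm ring, which encircles the snRNAs, and proteins particular to U1 and U2 snRNP. SF3A and SF3B are the protein complexes of U2 snRNP that hold the branch site. SR proteins (SRSF genes) bind exons and mostly favour their inclusion, whereas many hnRNPs (HNRNP genes) bind exons or introns and often oppose it, so the balance of both groups sets splice site choice. Many of these genes also control their own mRNA through unproductive splicing.

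No member passed the test in any comparison. The values were fitted with limma across all genes, with the replicate number as a block, and two-sided p-values were corrected over all 12939 genes (Benjamini-Hochberg). A gene counted as past threshold had an adjusted p under 0.05 and also met a minimum size, which was a log2 fold change of 0.73 in either direction for CDH2 shRNA and a fold of 1.5 for the other comparisons. By this rule 0 of 53 members were past threshold with CDH2 shRNA, beside 2.06% of all genes, and 0 of 53 with Cx43 shRNA, beside 1.18%. Between the knockdowns the count was 0 of 53, beside 0.0% of all genes. With an adjusted p under 0.05 at any fold the members again counted 0 in each comparison, beside 14.3% of all genes with CDH2 shRNA, 1.21% with Cx43 shRNA and 0.0% between the knockdowns. At an unadjusted p under 0.05, 10 members stood out with CDH2 shRNA, 5 with Cx43 shRNA and 5 between the knockdowns, beside 37.5%, 21.6% and 20.0% of all genes. The lowest adjusted p among the members was 0.059 for HNRNPU with CDH2 shRNA, 0.18 for HNRNPA1P48 with Cx43 shRNA, closely followed by HNRNPD, and 0.124 for HNRNPD between the knockdowns. Without the block, 15, 9 and 7 members had an adjusted p under 0.05 in the 3 comparisons, beside 43.3%, 24.3% and 21.5% of all genes.

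The estimates were small and mostly tightly bounded. Over the 53 members, the log2 fold change ran from −0.44 to 0.31 with CDH2 shRNA and from −0.30 to 0.41 with Cx43 shRNA. The 95% confidence interval lay within a log2 fold change of 0.73 in either direction for 51 of 53 members with CDH2 shRNA, and the exceptions were SNRPE and SNRPG. With Cx43 shRNA the interval lay within a fold of 1.5 for 44 of 53 members. The residuals of the values vary in 2 directions, although the model counts 3 residual degrees of freedom. The intervals may therefore be too narrow. The limma p-values and adjusted p-values, also those that pass, may be too low. The plot of estimates by family shows the HNRNP genes to the right of 0 and the SNRP genes to its left with CDH2 shRNA, with wider intervals for the SNRP genes.

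**Figure D1:**
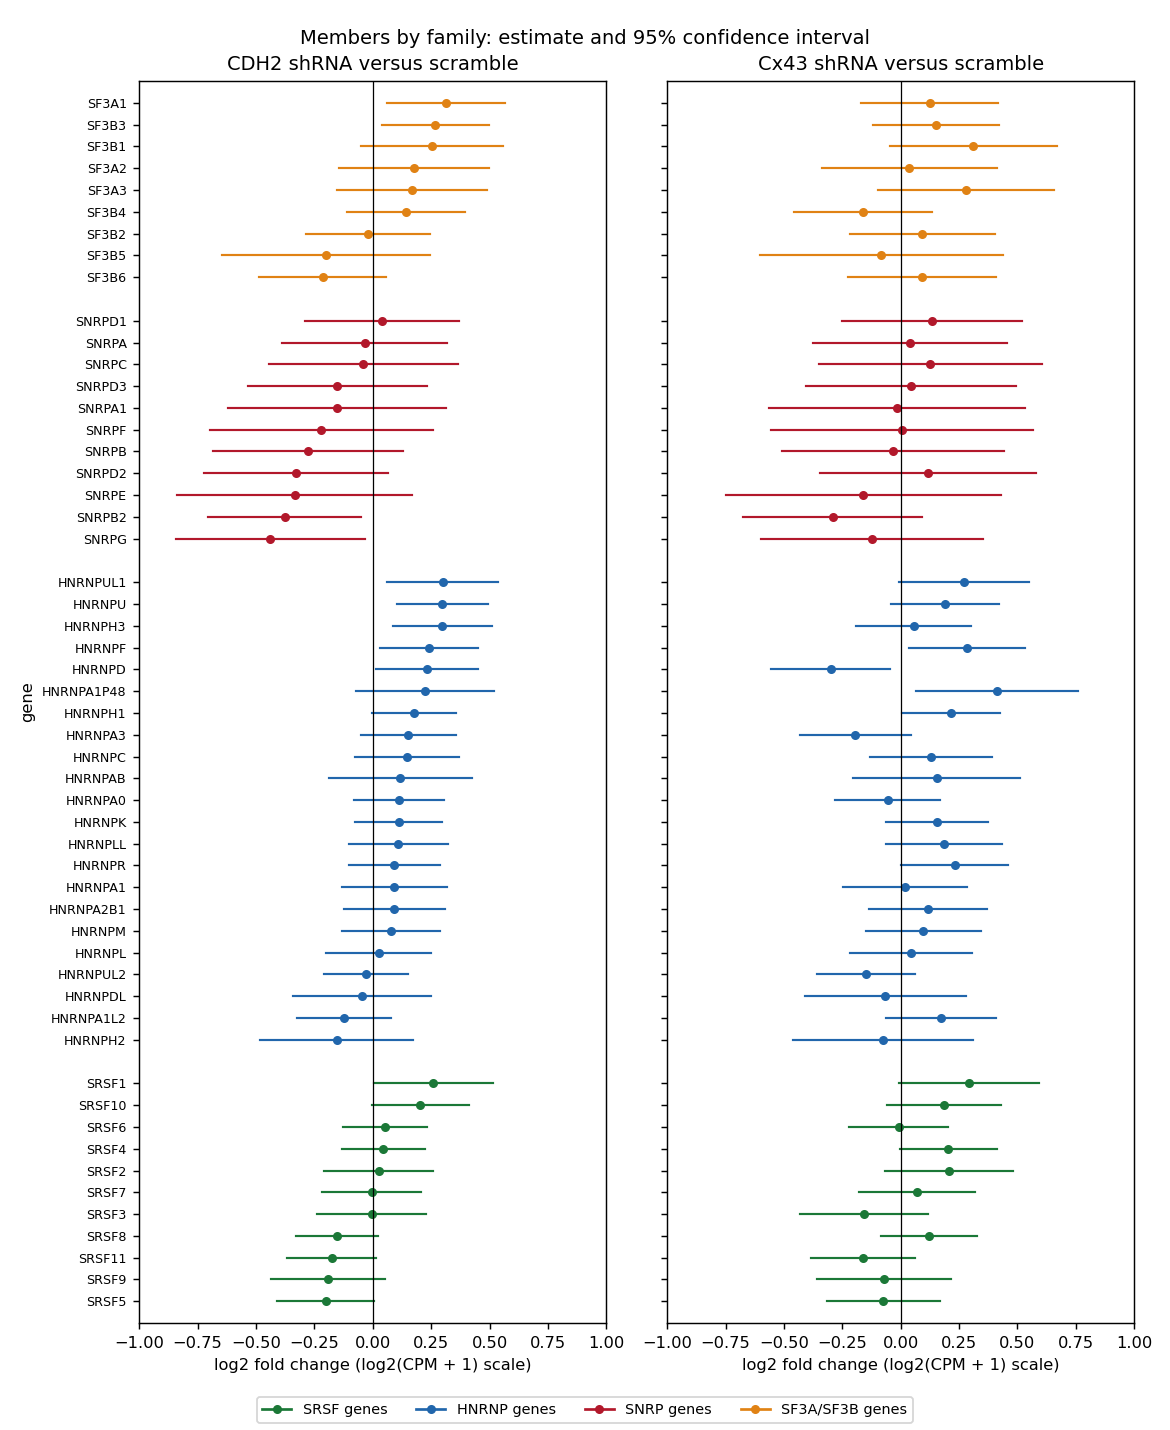
Log2 fold change of each of the 53 members (points) with its 95% confidence interval (lines) in CDH2 shRNA (left) and Cx43 shRNA (right) versus scramble, coloured by family. With CDH2 shRNA, 18 of 22 HNRNP estimates lie above 0 and 10 of 11 SNRP estimates lie below it.

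The families differed in their medians. With CDH2 shRNA the median log2 fold change was 0.11 over the HNRNP genes, 0.17 over the SF3A/SF3B genes, −0.00 over the SRSF genes and −0.22 over the SNRP genes, and over all genes it was 0.01. With Cx43 shRNA the medians were 0.12, 0.09, 0.07 and 0.00 in the same order, and 0.04 over all genes. These are descriptions without a test, since genes are not replicates. The libraries of the knockdown group lay wholly outside the range of the scramble group for 21 members with CDH2 shRNA (17 above, 4 below), beside 51.9% of all genes (27.1% above, 24.8% below). With Cx43 shRNA this held for 26 members (19 above, 7 below), beside 52.8% of all genes (31.4% above, 21.4% below). Both comparisons share the scramble libraries.

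**Figure D2:**
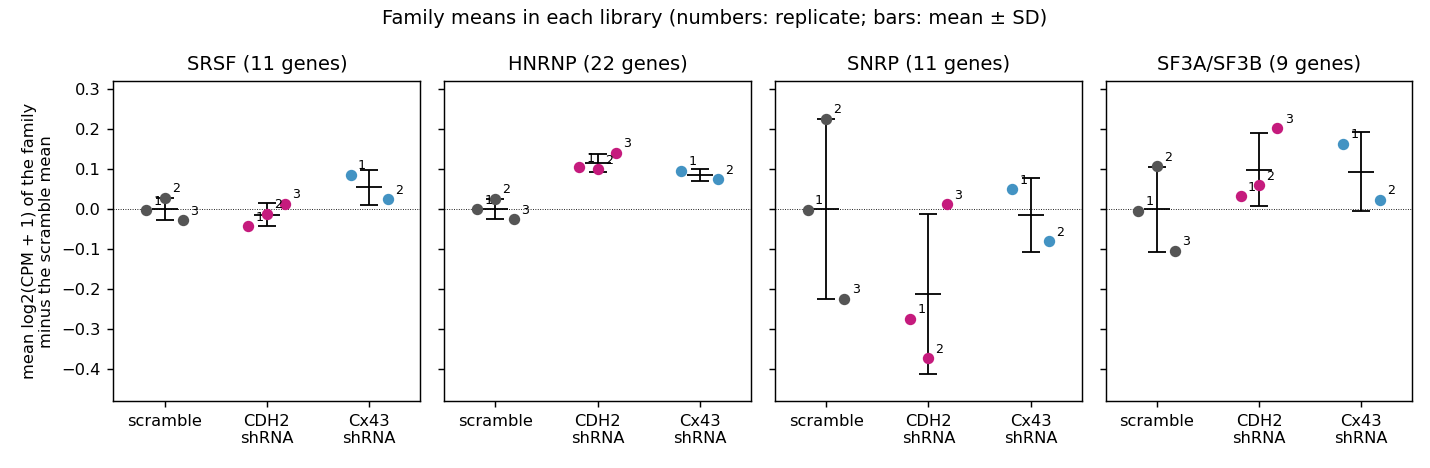
Mean log2(CPM + 1) of each family in each of the 8 libraries minus the mean of the 3 scramble libraries (points, numbered by replicate), with the group mean ± SD (bars; n = 3, 3 and 2). The HNRNP libraries of both knockdowns lie above all scramble libraries, whereas the SNRP libraries overlap and spread most.

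The HNRNP family was the most even. Its mean level was 7.02, 7.04 and 6.99 in the scramble libraries, 7.12, 7.12 and 7.16 with CDH2 shRNA and 7.11 and 7.09 with Cx43 shRNA, on the log2(CPM + 1) scale. All 5 knockdown libraries therefore lay above the 3 scramble libraries. With CDH2 shRNA, 18 estimates were higher and 4 lower, and with Cx43 shRNA 16 were higher and 6 lower. None passed the test. The median SE of an HNRNP estimate was 0.09 with CDH2 shRNA, against 0.16 for an SNRP estimate.

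HNRNPU, also called SAF-A, binds nascent RNA and chromatin and had the highest mean level of all members. It stood at 8.84, 8.85 and 8.83 in the scramble libraries, at 9.08, 9.19 and 9.14 with CDH2 shRNA and at 9.09 and 8.97 with Cx43 shRNA. Every knockdown library lay above every scramble library. The log2 fold change was 0.30 ± 0.08 (SE) with CDH2 shRNA (limma adjusted p = 0.059) and 0.19 ± 0.09 with Cx43 shRNA (adjusted p = 0.303). With quantile normalization HNRNPU was the only 1 of 53 members whose adjusted p with CDH2 shRNA was under 0.05, beside 15.2% of all genes.

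HNRNPUL1, a relative of HNRNPU, had the highest HNRNP estimate with CDH2 shRNA, 0.30 ± 0.10 (limma adjusted p = 0.084). Its level was 7.29, 7.29 and 7.30 in the scramble libraries, 7.50, 7.69 and 7.59 with CDH2 shRNA and 7.67 and 7.47 with Cx43 shRNA. The groups did not overlap in either knockdown. HNRNPUL2, the third gene of this type, had an estimate of −0.03 with CDH2 shRNA and −0.15 with Cx43 shRNA. As 45.1% of the 75-base windows of its transcript also occur in other annotated genes, mainly the readthrough gene HNRNPUL2-BSCL2, its value depends on how reads were divided.

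HNRNPF, HNRNPH1, HNRNPH2 and HNRNPH3 encode related proteins that bind runs of guanines. HNRNPH1 stood at 8.81, 8.80 and 8.84 in the scramble libraries, 8.97, 9.03 and 8.97 with CDH2 shRNA and 9.04 and 9.01 with Cx43 shRNA. All 5 knockdown libraries were above the scramble range, and the estimates were 0.18 ± 0.07 and 0.21 ± 0.09 (limma adjusted p = 0.138 and 0.224). HNRNPF was placed likewise, with estimates of 0.24 ± 0.09 and 0.28 ± 0.10 (adjusted p = 0.102 and 0.187). HNRNPH3 was above the scramble range with CDH2 shRNA alone, at 0.30 ± 0.09 against 0.06 ± 0.10 with Cx43 shRNA. HNRNPH2 had the lowest HNRNP estimate with CDH2 shRNA, −0.15 ± 0.13. Its libraries overlapped, at 5.98, 5.83 and 6.15 with scramble, 5.82, 6.01 and 5.67 with CDH2 shRNA and 5.93 and 5.90 with Cx43 shRNA.

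HNRNPC, which binds uridine tracts and keeps cryptic exons out, stood at 8.62, 8.65 and 8.58 in the scramble libraries. It was at 8.83, 8.66 and 8.80 with CDH2 shRNA and at 8.68 and 8.82 with Cx43 shRNA. Its lowest CDH2 shRNA library lay just above the highest scramble library, and the estimates of 0.15 ± 0.09 and 0.13 ± 0.11 did not pass the test.

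HNRNPD, HNRNPA3 and SRSF8 were the members that lay on opposite sides of scramble in both knockdowns, 3 of 53 or 5.66%, beside 4.78% of all genes. HNRNPD, also called AUF1, binds AU-rich elements and governs the stability of many mRNAs. It stood at 6.88, 6.89 and 6.85 in the scramble libraries, at 7.17, 7.01 and 7.12 with CDH2 shRNA, and at 6.50 and 6.64 with Cx43 shRNA. The 3 groups did not overlap at any point. The estimates were 0.23 ± 0.09 with CDH2 shRNA (limma adjusted p = 0.117) and −0.30 ± 0.10 with Cx43 shRNA (adjusted p = 0.18). Between the knockdowns the difference was 0.53 ± 0.10 (limma adjusted p = 0.124), the largest of any member, in a fit where 0.0% of all genes passed. It had an adjusted p under 0.05 without the block, beside 21.5% of all genes, and without scramble replicate 2, beside 6.69%. The same held without scramble replicate 3 or CDH2 shRNA replicate 3, beside 16.5%, and these fits gave the same calls as each other.

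HNRNPA3, an hnRNP of the A/B type, stood at 6.71, 6.71 and 6.69 in the scramble libraries, 6.91, 6.78 and 6.87 with CDH2 shRNA and 6.45 and 6.57 with Cx43 shRNA. The order of the groups was that of HNRNPD, with smaller estimates of 0.15 ± 0.08 and −0.20 ± 0.10. Of the 75-base windows of its transcript, 71.0% also occur on either strand of other annotated genes, 56.9% in the overlapping gene NFE2L2. Its value may therefore depend on how reads were divided, and on the strandedness of the libraries, which is not given. The pseudogene HNRNPA3P6 followed it, with estimates of 0.24 ± 0.09 and −0.22 ± 0.10, and 66.5% of the 75-base windows of HNRNPA3P6 occur in HNRNPA3. The following windows of read length, from GENCODE transcripts on hg38, are shown as a stretch in which gene and copy differ at only 2 bases, so that they can be told apart there but not in the windows they share. They lie at chr2:177216513-177216587 (+ strand) in a coding exon of HNRNPA3 and at chr3:75215113-75215187 (+ strand) in HNRNPA3P6. Capitals mark the bases of HNRNPA3P6 that differ from HNRNPA3, G38A and A75G, counted from 1 at the 5′ end of the window with the base of HNRNPA3 given before that of the copy.
HNRNPA3: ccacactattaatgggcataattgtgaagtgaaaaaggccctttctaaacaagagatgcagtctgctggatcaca
HNRNPA3P6: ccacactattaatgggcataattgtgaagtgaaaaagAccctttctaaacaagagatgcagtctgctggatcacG

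Among the close relatives of HNRNPD, HNRNPDL overlapped between all groups (−0.04 ± 0.12 and −0.07 ± 0.14), as did HNRNPAB (0.12 ± 0.12 and 0.15 ± 0.15).

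**Figure D3:**
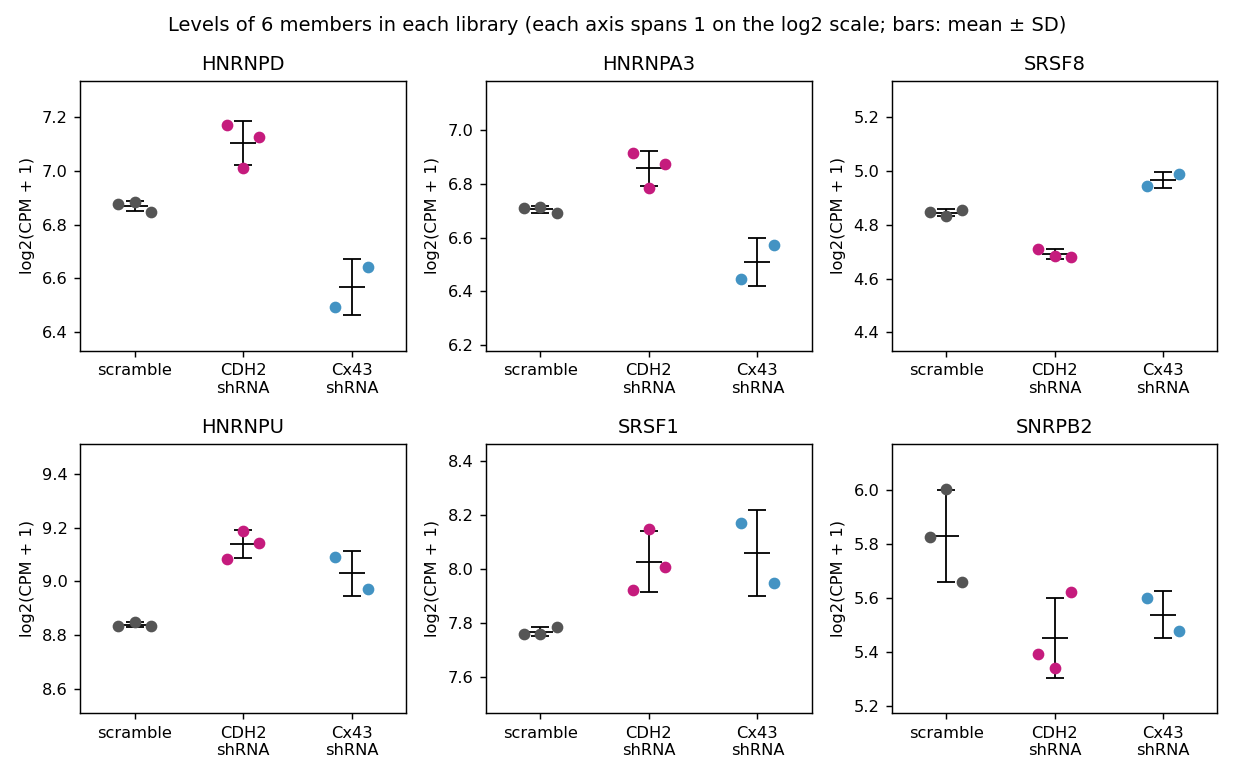
Log2(CPM + 1) of 6 members in each library (points), with the group mean ± SD (bars; n = 3, 3 and 2). HNRNPD and HNRNPA3 are higher with CDH2 shRNA and lower with Cx43 shRNA than with scramble, SRSF8 is the reverse, HNRNPU and SRSF1 are higher in both knockdowns, and SNRPB2 is lower in both.

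HNRNPA1, which opposes SR proteins at many exons, cannot be read fully apart from its copies. Many retrocopies of HNRNPA1 lie in the genome, and reads of 75 bases from identical stretches were divided between them by the authors' expectation-maximization step. In the coding sequence of HNRNPA1, 71.0% of 75-base windows occur unchanged in at least 1 of HNRNPA1L2, HNRNPA1P48, HNRNPA1P7 and HNRNPA1P10. Over its whole transcript, the measure used for the other members, 29.8% of windows occur in other annotated genes, against 32.2% for HNRNPL.

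The copies together held more CPM than HNRNPA1 itself. Which of their reads came from HNRNPA1 was not tested. Of the CPM summed over HNRNPA1 and the 5 genes named after it, the copies held 57.7 to 58.1% in the scramble libraries, 59.5 to 61.2% with CDH2 shRNA and 62.7 to 64.2% with Cx43 shRNA. HNRNPA1 itself stood at 7.06, 7.14 and 6.98 in the scramble libraries, 7.17, 7.05 and 7.23 with CDH2 shRNA and 7.06 and 7.10 with Cx43 shRNA. Its groups overlapped, with estimates of 0.09 ± 0.09 and 0.02 ± 0.11. HNRNPA1P48 stood at 6.50, 6.65 and 6.35 in the scramble libraries, 6.68, 6.62 and 6.87 with CDH2 shRNA and 6.96 and 6.87 with Cx43 shRNA. Its estimate of 0.41 ± 0.14 with Cx43 shRNA was the highest of any member in that comparison (limma adjusted p = 0.18). HNRNPA1L2, of whose transcript 100% of windows occur in other genes, had estimates of −0.12 ± 0.08 and 0.17 ± 0.10.

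**Figure D4:**
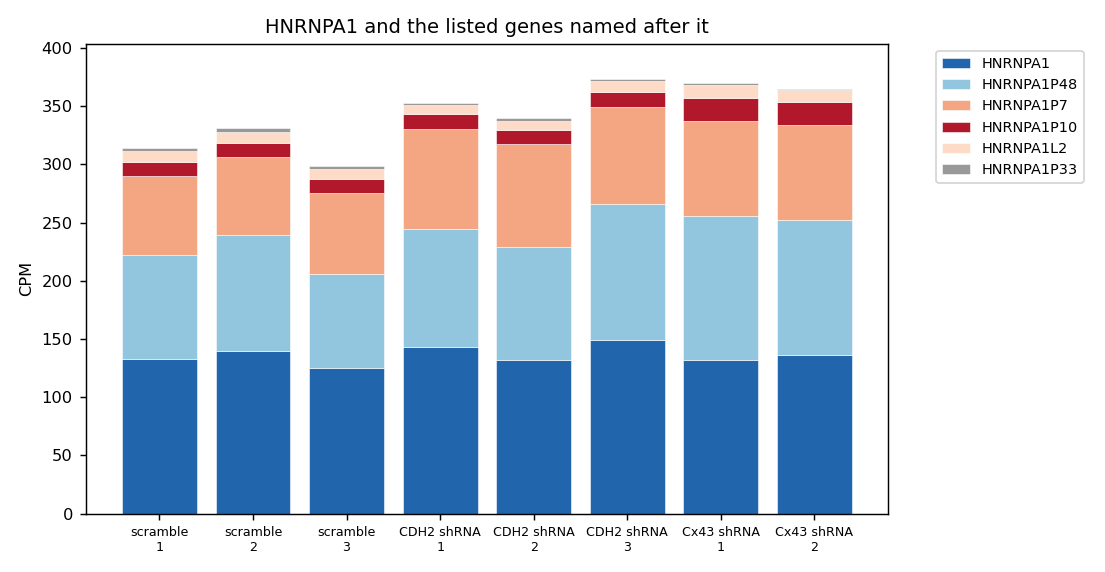
CPM of HNRNPA1 and the 5 listed genes named after it in each library, stacked (bars start at 0). HNRNPA1 makes up less than the copies in every library, and the copies' share runs from 57.7 to 64.2%.

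In other members the pseudogenes held a smaller part of the CPM. They held 31.2 to 33.1% of the summed CPM of the HNRNPA3 group, 45.3 to 49.2% of that of SNRPE, 20.2 to 23.0% of SNRPG, 15.9 to 18.5% of HNRNPL and 14.5 to 15.6% of HNRNPC. With each pseudogene's CPM summed into its member, an alternative chosen after seeing the data, 0 of 53 members passed in each comparison. The shares of all genes with an adjusted p under 0.05 were 14.3% with CDH2 shRNA, 1.2% with Cx43 shRNA and 0.0% between the knockdowns.

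The mean level of the SRSF family was 7.12, 7.15 and 7.09 in the scramble libraries, 7.07, 7.11 and 7.13 with CDH2 shRNA and 7.20 and 7.14 with Cx43 shRNA. With CDH2 shRNA 5 estimates were higher and 6 lower, and with Cx43 shRNA 6 were higher and 5 lower. SRSF1, the founding SR protein and a known proto-oncogene, stood at 7.76, 7.76 and 7.79 in the scramble libraries, 7.92, 8.15 and 8.01 with CDH2 shRNA and 8.17 and 7.95 with Cx43 shRNA. All knockdown libraries were above the scramble range, and the estimates of 0.26 ± 0.10 and 0.29 ± 0.12 (limma adjusted p = 0.13 and 0.239) were the highest of the family in both comparisons. SRSF10, an SR protein that acts as a repressor when dephosphorylated, was likewise above the range in both, at 0.20 ± 0.08 and 0.18 ± 0.10.

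SRSF5 and SRSF11 lay on the other side. SRSF5 had the lowest SRSF estimate with CDH2 shRNA, −0.20 ± 0.08 (limma adjusted p = 0.14), and stood at 7.17, 7.16 and 7.18 in the scramble libraries, 6.91, 7.05 and 6.96 with CDH2 shRNA and 7.17 and 7.03 with Cx43 shRNA. SRSF11, an SR-related protein, stood at 6.54, 6.58 and 6.49 with scramble, 6.36, 6.32 and 6.41 with CDH2 shRNA and 6.38 and 6.38 with Cx43 shRNA. Its 5 knockdown libraries were all below the scramble range, with estimates of −0.18 ± 0.08 and −0.16 ± 0.09 that did not pass the test. SRSF8, a relative of SRSF2, stood at 4.85, 4.83 and 4.86 with scramble, 4.71, 4.68 and 4.68 with CDH2 shRNA and 4.94 and 4.99 with Cx43 shRNA. The difference between the knockdowns was −0.27 ± 0.08 (adjusted p = 0.178).

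SRSF3 and SRSF6 were the SRSF genes with the highest levels. SRSF3, the shortest SR protein, stood at 8.57, 8.63 and 8.49 with scramble, 8.60, 8.44 and 8.63 with CDH2 shRNA and 8.35 and 8.46 with Cx43 shRNA, so that it overlapped with CDH2 shRNA and was just below the range with Cx43 shRNA. SRSF6 kept within 7.99 to 8.09 in all 8 libraries, and its estimates of 0.05 ± 0.07 and −0.01 ± 0.09 did not pass the test. SRSF2 (0.02 ± 0.09 and 0.21 ± 0.11), SRSF7 (−0.00 ± 0.09 and 0.07 ± 0.10) and SRSF9 (−0.19 ± 0.10 and −0.07 ± 0.12) overlapped with scramble in CDH2 shRNA. Windows of SRSF9 and SRSF2 are shared with the overlapping genes GATC and MFSD11, for 38.9 and 23.6% of all their windows.

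The SNRP genes were lower with CDH2 shRNA by estimate, but the libraries disagreed. With CDH2 shRNA 10 of 11 estimates were below 0, with Cx43 shRNA 5 of 11, and between the knockdowns all 11 were lower with CDH2 shRNA. The mean of the family was 6.01, 6.24 and 5.79 in the scramble libraries, 5.74, 5.64 and 6.02 with CDH2 shRNA and 6.06 and 5.93 with Cx43 shRNA. The scramble libraries alone spanned more than the difference between the group means. Against the scramble library of the same number, CDH2 shRNA replicates 1 and 2 were lower in all 11 genes, by 0.27 and 0.60 on average, and replicate 3 was higher in 10 of 11, by 0.24. Cx43 shRNA replicate 1 was higher in 8 of 11 genes and replicate 2 lower in all 11. The deposited deviations within a replicate number sum to 0, so in replicate 3, which has 2 libraries, each is the mirror image of the other about its group mean.

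Without CDH2 shRNA replicate 3, and equally without scramble replicate 3, the SNRP median with CDH2 shRNA was −0.49 and 11 members had an adjusted p under 0.05, beside 41.0% of all genes. These were SF3B1, which was higher, and SF3B5, SF3B6 and 8 SNRP genes, which were lower. Without scramble replicate 2 the SNRP median was −0.00.

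In the Sm ring, 6 of 7 estimates were lower with CDH2 shRNA, and their median was −0.28 with CDH2 shRNA and 0.00 with Cx43 shRNA. SNRPG had the lowest estimate of all members, −0.44 ± 0.16 (limma adjusted p = 0.113). It stood at 5.97, 6.20 and 5.74 with scramble, 5.48, 5.35 and 5.76 with CDH2 shRNA and 5.89 and 5.79 with Cx43 shRNA, so that CDH2 shRNA replicate 3 lay within the scramble range. SNRPD2, the member with the highest level per length at 332 CPM per kb in scramble, stood at 7.42, 7.63 and 7.20 with scramble, 7.05, 6.90 and 7.31 with CDH2 shRNA and 7.57 and 7.50 with Cx43 shRNA. Both Cx43 shRNA libraries were above the 3 CDH2 shRNA libraries (−0.45 ± 0.19, adjusted p = 0.26). SNRPB, which encodes the Sm proteins B and B′, had estimates of −0.28 ± 0.16 and −0.03 ± 0.19, and SNRPD3 had −0.15 ± 0.16 and 0.04 ± 0.18. SNRPD1 had the only positive estimate of the family with CDH2 shRNA, 0.04 ± 0.13.

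Among the proteins particular to U1 and U2 snRNP, SNRPB2 was the only SNRP gene whose knockdown and scramble groups did not overlap, in both knockdowns. It stood at 5.83, 6.003 and 5.66 with scramble, 5.39, 5.34 and 5.62 with CDH2 shRNA and 5.60 and 5.48 with Cx43 shRNA. The margin was narrow, since CDH2 shRNA replicate 3 lay just under scramble replicate 3. The estimates were −0.38 ± 0.13 (limma adjusted p = 0.099) and −0.29 ± 0.16 (adjusted p = 0.335). Its partner in U2 snRNP, SNRPA1, had −0.15 ± 0.19 and −0.02 ± 0.22. The U1 proteins SNRPA (−0.03 ± 0.14 and 0.04 ± 0.17) and SNRPC (−0.04 ± 0.16 and 0.13 ± 0.19) overlapped between all groups.

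The SF3A/SF3B genes had estimates on both sides of 0 with CDH2 shRNA, 6 higher and 3 lower, and 7 higher and 2 lower with Cx43 shRNA. SF3A1 had the highest estimate of all members with CDH2 shRNA, 0.31 ± 0.10 (limma adjusted p = 0.086), and 0.12 ± 0.12 with Cx43 shRNA. It stood at 6.86, 6.97 and 6.76 with scramble, 7.12, 7.14 and 7.28 with CDH2 shRNA and 7.05 and 6.92 with Cx43 shRNA, above the scramble range in CDH2 shRNA alone. SF3B3, the β-propeller scaffold of SF3B, was placed in the same way, at 7.86, 7.94 and 7.80 with scramble, 8.06, 8.14 and 8.20 with CDH2 shRNA and 8.10 and 7.94 with Cx43 shRNA (0.27 ± 0.09 and 0.15 ± 0.11).

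SF3B1, the subunit that clasps the branch site helix, stood at 7.62, 7.48 and 7.76 with scramble, 7.85, 8.05 and 7.73 with CDH2 shRNA and 7.97 and 7.90 with Cx43 shRNA. CDH2 shRNA replicate 3 lay within the scramble range, and both Cx43 shRNA libraries lay above it (0.25 ± 0.12 and 0.31 ± 0.15, limma adjusted p = 0.189 and 0.281). SF3B4 had the lowest SF3A/SF3B estimate with Cx43 shRNA, −0.16 ± 0.12, and SF3B2 was near 0 in both (−0.02 ± 0.11 and 0.09 ± 0.13). SF3B5 and SF3B6, small subunits, had −0.20 ± 0.18 and −0.21 ± 0.11 with CDH2 shRNA, and −0.08 ± 0.21 and 0.09 ± 0.13 with Cx43 shRNA.

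The SNRP genes, lowest by median with CDH2 shRNA, also had the shortest transcripts, whereas the other families were not in the order of their lengths. The canonical transcripts had a median length of 1082 bases in the SNRP family, 2774 in SF3A/SF3B, 3116.5 in HNRNP and 3959 in SRSF. Across the 53 members, Spearman's rho between transcript length and log2 fold change was 0.573 with CDH2 shRNA and 0.223 with Cx43 shRNA. This describes genes that share the same libraries, and it carries no p. The same held over all genes, where the 1066 genes with a transcript under 1000 bases had a median of −0.26 with CDH2 shRNA and −0.02 with Cx43 shRNA, and the 4713 genes of 4000 bases or more had 0.17 and 0.08. By replicate number, the short genes differed by −0.26, −0.43 and −0.02 on average with CDH2 shRNA. With each library corrected for transcript length and GC content, the SNRP median with CDH2 shRNA was −0.06 and the HNRNP median 0.03. In that fit 3 members had an adjusted p under 0.05, SF3A2, SF3B4 and SRSF8, beside 13.5% of all genes.

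**Figure D5:**
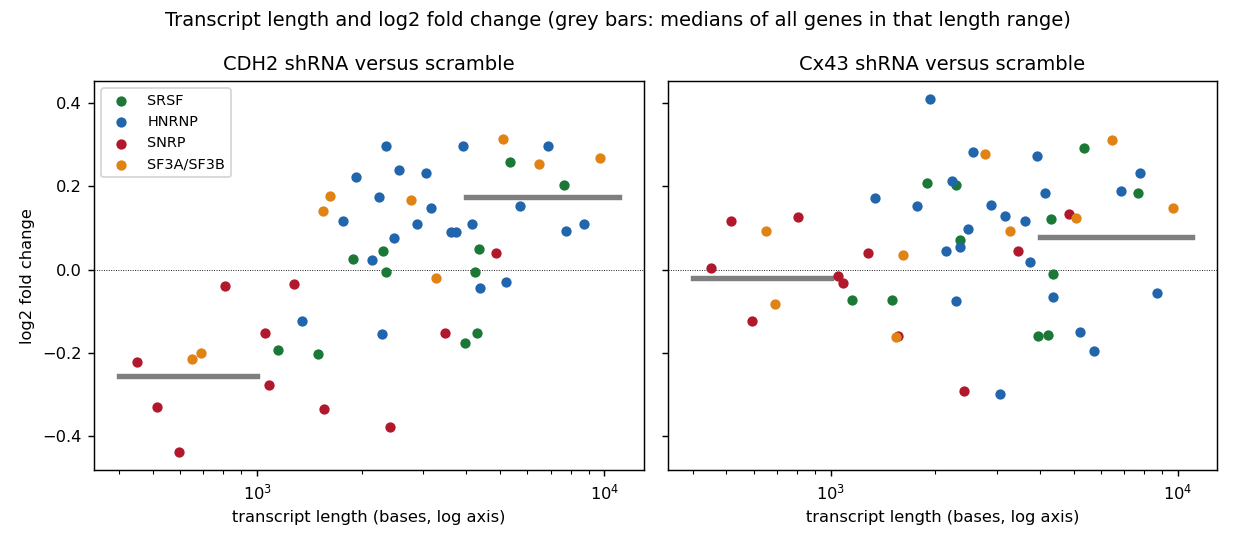
Log2 fold change of the 53 members against the length of the canonical transcript (log axis), coloured by family, in CDH2 shRNA (left) and Cx43 shRNA (right) versus scramble. The grey bars are medians over all genes with a transcript under 1000 bases and of 4000 bases or more, at −0.26 and 0.17 with CDH2 shRNA and at −0.02 and 0.08 with Cx43 shRNA.

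Between the knockdowns, 17 members were higher and 36 lower with CDH2 shRNA than with Cx43 shRNA. The libraries did not overlap for 16 members, 8 in each direction, beside 50.8% of all genes (21.8% above, 29.1% below). The family medians were −0.02 for HNRNP, −0.06 for SF3A/SF3B, −0.08 for SRSF and −0.17 for SNRP, and −0.03 over all genes. After HNRNPD, the highest differences were 0.35 ± 0.10 for HNRNPA3 and 0.30 ± 0.12 for SF3B4 (limma adjusted p = 0.164 and 0.243). The lowest were those of SNRPD2, SNRPG and SF3B6, the last at −0.31 ± 0.13 (adjusted p = 0.259). The interval of the difference stayed within a fold of 1.5 for 40 of 53 members.

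Genes that work with the members were followed in 7 lists by role, of which 10 LSM, 14 Sm assembly, 31 other snRNP, 35 PRP19 and helicase, 20 hnRNP-type, 8 SR kinase and 29 other regulator genes were listed in the libraries. In CDH2 shRNA 14 of these genes passed an adjusted p under 0.05, beside 7.29% of all genes higher and 6.98% lower, and 10 of them rose and 4 fell. In the fit of only the groups compared, and without CDH2 shRNA replicate 1 or 2, 0.0% of all genes passed. None of these CDH2 shRNA calls held there. Without CDH2 shRNA replicate 3 that share was 41.0%. In Cx43 shRNA 1 of the list genes, CELF2, passed and rose, beside 0.417% of all genes higher and 0.788% lower. CELF2 was listed only through its knockdown libraries, as described below. SRPK1, a kinase that phosphorylates SR proteins, was the only 1 of 8 SR kinases to pass the test with CDH2 shRNA, at a log2 fold change of 0.34 ± 0.07 (limma adjusted p = 0.039), while 6 of the 8 had estimates above 0. It stood at 7.67, 7.65 and 7.71 with scramble, 8.005, 8.06 and 7.99 with CDH2 shRNA and 8.01 and 7.98 with Cx43 shRNA, so that all 5 knockdown libraries lay above scramble (0.32 ± 0.09 with Cx43 shRNA, adjusted p = 0.124).

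GEMIN5, which delivers snRNAs to the SMN complex for Sm ring assembly, was the only 1 of 14 assembly genes to pass the test with CDH2 shRNA, at 0.65 ± 0.09 (limma adjusted p = 0.021), while 8 of the 14 had estimates above 0. It stood at 5.60, 5.63 and 5.59 with scramble, 6.18, 6.33 and 6.28 with CDH2 shRNA and 6.13 and 5.94 with Cx43 shRNA. The 10 LSM genes, which encode Sm-like proteins, had a median of −0.29 with CDH2 shRNA, with 9 lower and 1 higher, and 0.01 with Cx43 shRNA, and none passed. All genes with a transcript under 1000 bases had a median of −0.26 with CDH2 shRNA. The transcript lengths of the list genes were not set against their estimates. None of the 31 other snRNP genes passed either.

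In the list of PRP19 complex and helicase genes, 4 of 35 passed the test with CDH2 shRNA and all 4 fell. BUD31, a component of activated spliceosomes, fell by 0.60 ± 0.12, from 6.28, 6.43 and 6.13 with scramble to 5.67, 5.55 and 5.83 (limma adjusted p = 0.035). SYF2, a PRP19-associated protein, fell by 0.47 ± 0.08 (adjusted p = 0.025). Its level was 4.82, 4.86 and 4.78 with scramble, 4.32, 4.34 and 4.39 with CDH2 shRNA and 4.75 and 4.69 with Cx43 shRNA. CWC27, a cyclophilin-type protein, and SLU7, which acts in the second catalytic step, were the other two.

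Of 20 hnRNP-type proteins without the HNRNP name, 3 passed the test with CDH2 shRNA and all 3 rose. These were KHSRP, which promotes decay of AU-rich mRNAs (0.39 ± 0.09, limma adjusted p = 0.046), MATR3, a nuclear matrix protein (0.33 ± 0.08, adjusted p = 0.046), and SYNCRIP, a relative of HNRNPR. HNRNPR itself had 0.09 ± 0.08 with CDH2 shRNA and 0.23 ± 0.09 with Cx43 shRNA. Of 29 other regulators, 5 passed the test with CDH2 shRNA and all 5 rose. MBNL1, which drives splicing patterns of differentiated cells, rose by 0.66 ± 0.15 (adjusted p = 0.046), from 6.55, 6.36 and 6.75 to 7.19, 7.43 and 7.01. CELF2, which often opposes MBNL1 at the same exons, rose in both knockdowns, by 0.70 ± 0.07 and 1.02 ± 0.08 (adjusted p = 0.017 and 0.031). Its level was low, at 1.83, 1.84 and 1.83 with scramble, 2.53, 2.55 and 2.54 with CDH2 shRNA and 2.86 and 2.84 with Cx43 shRNA. PNN, SON and SRRM2, proteins of nuclear speckles and exon junctions, were the remaining 3 that rose with CDH2 shRNA.

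Lastly, the families differed in short motifs before their start sites, which the choice of members did not use. Promoters from RefSeq (GRCh38.p14) were matched for 48 of 53 members and for 9548 genes, and the 250 bases before each start were searched on both strands. CCGGAAG, the core bound by ETS factors such as GABPA, occurred in 7 of 10 SNRP and 6 of 8 SF3A/SF3B promoters, against 2 of 10 SRSF, 3 of 20 HNRNP and 17.2% of all promoters. CCAAT occurred in 13 of 20 HNRNP promoters and in 35.9% of all, and TATAAA in 6 of 48 members and 5.01% of all. GGGCGG occurred in 29 of 48 members and 68.9% of all, and the palindromic NRF1 motif in 0 of 48 and 2.01%. Each motif was counted on its own, so matches of different motifs could overlap. A match is a description of the letters and not a binding site. The bases just after the start occurred in a GENCODE transcript of the same gene for 43 of 48 members. GENCODE opens the gene at 16729961 for SNRPB2, 2470853 for SNRPB and 30356919 for SF3A1. Part of each stretch printed below therefore lies within the gene as GENCODE annotates it. The last 120 bases before the start are printed for SNRPB2 (chr20:16729906-16730025, + strand), SNRPB (chr20:2470790-2470909, − strand) and SF3A1 (chr22:30356895-30357014, − strand), as members with estimates below 0 (SNRPB2 and SNRPB, the latter overlapping with scramble) and above 0 (SF3A1) with CDH2 shRNA that share CCGGAAG or its reverse complement, which is in capitals together with GGGCGG.
SNRPB2: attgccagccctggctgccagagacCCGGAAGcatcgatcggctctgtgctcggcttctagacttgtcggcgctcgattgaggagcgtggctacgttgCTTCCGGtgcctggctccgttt
SNRPB: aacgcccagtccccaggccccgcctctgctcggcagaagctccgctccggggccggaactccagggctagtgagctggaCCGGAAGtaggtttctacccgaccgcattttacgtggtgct
SF3A1: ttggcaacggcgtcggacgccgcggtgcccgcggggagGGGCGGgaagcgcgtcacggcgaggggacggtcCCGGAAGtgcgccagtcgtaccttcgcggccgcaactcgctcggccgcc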

How the data were processed

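The authors aligned single reads of 75 bases from ribosome-depleted total RNA to hg38 with STAR in Partek Flow, quantified genes by expectation-maximization, removed a low-quality sample, took the log of CPM + 1, removed the batch among sequencing replicates and removed genes with low values. STAR is given as 2.6.1 in the submitters' processing notes, and the annotation and strandedness are not given in the sources used here. The deposited values are log2(CPM + 1), per the labels and the values themselves: turned back to CPM, a library sums to 684411 to 727083. In each library 1 line without a gene name was left out. The 500 lowest values of each library hold at least 496 distinct ones, so no whole reads could be recovered and no depth is given.

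The members and lists were chosen with earlier results of these data known. All 8 libraries were fitted with limma 3.58.1 in R 4.3.3 (lmFit and eBayes) on group with the replicate number as a block, without a further filter or pseudocount. The labels number the replicates and the column headers share a naming style within a number. Summed over the libraries of a number, each gene departs from its group means by at most 1e-04, which is how the batch removal leaves them, so correlations between same-numbered libraries (−1 to 0.951) are no independent sign of pairing. The fit has 3 residual degrees of freedom, with 2.84 added from the prior, and was tested on simulated data. Named are the members with the highest and lowest log2 fold change and the 3 with the highest level in each family, and in each list the genes with an adjusted p under 0.05 that changed most. Further members were named after their values were seen. Positions, lengths and windows are from GENCODE 44, which matched 12248 genes (94.7%). Windows of whole transcripts were matched on both strands, so stranded reads could be told apart in part of them. Alternatives were scaling, centring, filtering, a pseudocount of 0.1, a variance trend, a length and GC correction, fewer libraries, no block, and pseudogenes summed into members. The windows shared by HNRNPA1 and its copies are not reported here as sequence.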

Additional observations from a re-analysis of the deposited data

Results flagged for a closer look

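The genes left out by the rule, 21 pseudogenes and 1 readthrough gene, hold 4 changes that passed an adjusted p under 0.05 in limma. All are in pseudogenes of members that did not pass. Of all genes, 14.3% passed with CDH2 shRNA and 1.21% with Cx43 shRNA. In the fit of only the groups compared, 0.0% of all genes passed with CDH2 shRNA, so the CDH2 shRNA calls did not hold there. HNRNPA1P7 rose with CDH2 shRNA by 0.33 ± 0.07 (SE) on the log2 scale (adjusted p = 0.042), from 6.11, 6.08 and 6.15 to 6.44, 6.48 and 6.41. HNRNPA1P10 rose with Cx43 shRNA by 0.67 ± 0.08 (adjusted p = 0.038), from 3.69, 3.71 and 3.66 to 4.37 and 4.35. HNRNPKP1 rose with CDH2 shRNA by 0.63 ± 0.13 (adjusted p = 0.037), and SF3A3P2 by 0.45 ± 0.07 (adjusted p = 0.025), both at low levels. These genes were listed only through their knockdown libraries, since all their scramble values lay below the lowest maximum of any listed gene. At such scramble levels a gene without a rise would not have been listed, so their direction carries no information. Of the 75-base windows of HNRNPA1P7 and HNRNPA1P10, 70.4 and 77.9% occur in other annotated genes, so their values depend on how reads were divided, while HNRNPKP1 and SF3A3P2 share 0.0 and 0.698%.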

How the results depend on the processing

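The fold threshold was passed by 0 of 53 members in each comparison under every alternative that left at least 2 libraries per group. Over these, the share of all genes with an adjusted p under 0.05 ran from 0.0 to 43.3% with CDH2 shRNA. It ran from 0.0 to 24.3% with Cx43 shRNA and from 0.0 to 21.5% between the knockdowns. Where the share was 0.0%, no member could pass. The replicate block changed the calls at any fold: 15 members with CDH2 shRNA, 9 with Cx43 shRNA and 7 between the knockdowns had an adjusted p under 0.05 without the replicate block. Among single results, 53 came past an adjusted p of 0.05 under an alternative and 15 counts of list genes moved. The other 1348 stayed on the same side of that threshold or, for list counts, did not move. Signs were compared only where a fit passed, and there 0 reversed. Changes of sign among estimates that did not pass were not counted. Family medians moved by more than the spread between libraries in the following cases. With quantile normalization the medians were 0.0854 (HNRNP, CDH2 shRNA), 0.0178 (SRSF, Cx43 shRNA), 0.0308 (HNRNP, Cx43 shRNA) and 0.0443 (HNRNP, between the knockdowns). With the length and GC correction they were −0.0462 (SRSF) and 0.0336 (HNRNP) with CDH2 shRNA and −0.00593 (SRSF) and 0.0630 (HNRNP) with Cx43 shRNA. In the fit of only the groups compared the HNRNP median with Cx43 shRNA was 0.0930. Leaving out each library in turn, the CDH2 shRNA medians ran from −0.0741 to 0.0475 (SRSF), 0.0883 to 0.15 (HNRNP), −0.49 to −0.00256 (SNRP) and 0.0296 to 0.23 (SF3A/SF3B). The Cx43 shRNA medians ran from 0.0158 to 0.11, 0.0930 to 0.14, −0.13 to 0.25 and 0.0233 to 0.21 in the same order. Between the knockdowns they ran from −0.17 to −0.0133, −0.0469 to 0.0436, −0.30 to 0.00917 and −0.11 to 0.0633. The cause was not tested. Precision is limited by 2 or 3 libraries per group and unknown depth.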
